A study of Homo sapiens with 124 samples.

Results

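The globin loci hold the genes for the protein chains of haemoglobin, and their contacts with the nuclear lamina were compared in single cells. The beta globin locus on chromosome 11 carries HBB, HBD, HBG1, HBG2 and HBE1, and the alpha globin locus on chromosome 16 carries HBZ, HBA1 and HBA2. Bins of 100 kb of the deposited table were taken by position in the genome build hg19. The beta locus overlapped 2 bins, chromosome 11 from 5200001 to 5300000 and from 5300001 to 5400000. The alpha locus overlapped 1 bin, chromosome 16 from 200001 to 300000. Flanks of 2 Mb added 40 bins around the beta locus and 22 around the alpha locus, which lies close to the chromosome end. The loci thus make up 3 of 26426 usable bins in all.

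The data are single-cell DamID maps of KBM7, a human cell line that grew out of a chronic myeloid leukaemia and keeps a nearly haploid genome. A bacterial adenine methyltransferase, Dam, was fused to LaminB1, a protein of the lamina that lines the inner nuclear membrane, so that GATC motifs close to the lamina become methylated and can be cut, amplified and sequenced. All cells carry the labels clone 14, haploid (1N) and LaminB1 as the Dam fusion, were induced with 0.5 nM Shield1, a stabilising small molecule, for 15 h, and were sorted as the 2% smallest cells positive for both Fucci cell cycle markers. The 118 cells analysed of 124 form 1 group from a single clone, no untreated or Dam-only cells were used here, and the labels name no cultures. The comparison is therefore between loci within the same cells, SDs are spreads between cells, and no p-value was made from cells.

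Haemoglobin is a tetramer of a pair of alpha-type and a pair of beta-type chains, and red cell precursors make both kinds in balanced amounts. HBE1 and HBZ encode the embryonic chains epsilon and zeta, HBG1 and HBG2 the fetal gamma chains, HBB and HBD the adult beta and delta chains, and HBA1 and HBA2 the alpha chain. The beta-type genes are known to depend on a remote locus control region upstream of HBE1, and the alpha-type genes on enhancers within the neighbouring gene NPRL3. Chromatin at the lamina is in most cell types rich in inactive genes. Expression was not measured here, so whether these genes are active in the cells is not known from these data.

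The chromosomal surroundings differ in gene content. Among the 20 nearest protein-coding genes on each side of the beta cluster in the RefSeq gene order of GRCh38.p14, 32 of 40 were olfactory receptor genes, which encode odorant receptors of the nose. OR51V1 followed HBB on the telomere side and OR51B4 followed HBE1 on the centromere side, and 5 of the 40 were genes or readthrough genes of the TRIM family, TRIM5, TRIM6, TRIM34 and TRIM22 among them, known for roles in antiviral defence. On the telomere side of the alpha cluster only 7 protein-coding genes remained before the chromosome end, and 0 of its 27 neighbours were olfactory receptor genes. They included NPRL3, a regulator of nutrient signalling, MPG, a DNA repair glycosylase, POLR3K, a subunit of RNA polymerase III, and LUC7L, a splicing factor. In the set of 35116 RefSeq promoters used here, the 250 bases before the gene start had a median GC content of 58.0%. The median was 40.2% for the 24 beta neighbours in that set and 70.4% for the 19 alpha neighbours in it.

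The same contrast is visible in the sequence next to a gene of each cluster, shown because DamID reads only GATC motifs and because GATA motifs are the binding words of GATA1, a transcription factor of red cell development. Among the 8 genes, only HBD had an entry in the set of RefSeq promoters used here. HBM, the mu globin gene between HBZ and HBA2, stands for the alpha cluster. The sequences are the 250 bases before the start, HBD from chr11:5234484-5234733 on the minus strand and HBM from chr16:165728-165977 on the plus strand (RefSeq, GRCh38.p14, not the build of the DamID bins), with GATC and GATA on either strand in capitals:
HBD: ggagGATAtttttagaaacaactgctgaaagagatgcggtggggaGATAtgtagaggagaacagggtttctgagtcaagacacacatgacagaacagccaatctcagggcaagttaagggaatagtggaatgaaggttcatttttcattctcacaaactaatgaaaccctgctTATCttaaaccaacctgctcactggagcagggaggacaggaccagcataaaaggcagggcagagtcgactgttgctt
HBM: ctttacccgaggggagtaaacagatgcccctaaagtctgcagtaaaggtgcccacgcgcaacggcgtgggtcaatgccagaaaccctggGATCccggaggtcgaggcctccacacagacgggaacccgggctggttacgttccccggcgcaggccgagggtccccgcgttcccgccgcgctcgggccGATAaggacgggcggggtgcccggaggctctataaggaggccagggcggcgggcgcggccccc
HBD had a GC content of 45.2%, with 0 GATC and 3 GATA matches, of which the last is printed as its reverse complement TATC. HBM had a GC content of 69.2%, with 1 match of each. Of all promoters of this length, 35.8% held a GATC and 45.6% a GATA. The values below are per 100 kb and cannot be placed on such short stretches.

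Reads per cell were recovered from the deposited ratios and ranged from 28372 to 385661, with a median of 135782. A ratio of 1 stood for 4.24 reads in the first beta bin, 5.79 in the second and 3.81 in the alpha bin in the median cell, so the loci were read at similar depth. Cell 58 stood apart before any comparison, because 44 of its 38475 reads lay on chromosome 11. That is 0.114% of its reads, against 2.70% in the next lowest cell and a median of 5.63% over cells. The contact shares of the beta locus and its flanks, the frequencies of the beta bins and the correlations with distant bins are therefore also given without it. Other values over all cells include it.

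The beta locus touched the lamina in most cells and the alpha locus in none. A bin counted as in contact in a cell if its ratio of observed to expected reads was at least 1. The first beta bin, which in hg19 is known to hold all 5 beta-type genes and is called the globin gene bin here, was in contact in 73 of 118 cells, or 61.9% (exact Clopper-Pearson 95% interval 52.5 to 70.6%). The second beta bin, on the side of the locus control region, was in contact in 97 of 118 cells, or 82.2% (74.1 to 88.6%). The alpha bin, with HBZ, HBA2 and HBA1, was in contact in 0 of 118 cells, so that true frequencies of up to 2.54% (limit of 3 counts) or 3.08% (exact interval) remain possible. Intervals and limits cover the counting of cells only. Genes that share a bin share its value, so the 8 genes have 2 levels, that of the globin gene bin and that of the alpha bin.

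Over the cells, 72.0% ± 35.5 of the beta locus was in contact and 0% ± 0 of the alpha locus (SD, n = 118 cells). Without cell 58 the share of the beta locus was 72.6% ± 35.0 (SD, n = 117), with the globin gene bin at 62.4% and the second beta bin at 82.9%. Over all cells, with a contact value of 2 instead of 1, the share was 47.0% against 0%. At least 1 beta bin was in contact in 103 of 118 cells, or 87.3% (79.9 to 92.7%), whereas no cell had contact at alpha only. All 103 cells that differed between the loci had contact at beta only, which follows from the absence of alpha contact in any cell. Across the genome, 30.7% of usable bins were in contact in at least 60% of cells, as both beta bins were, and 22.3% had no contact in any cell, as the alpha bin did. The alpha level is thus a common one among usable bins, and 12.8% of them reached or passed the level of the second beta bin.

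**Figure D1:**
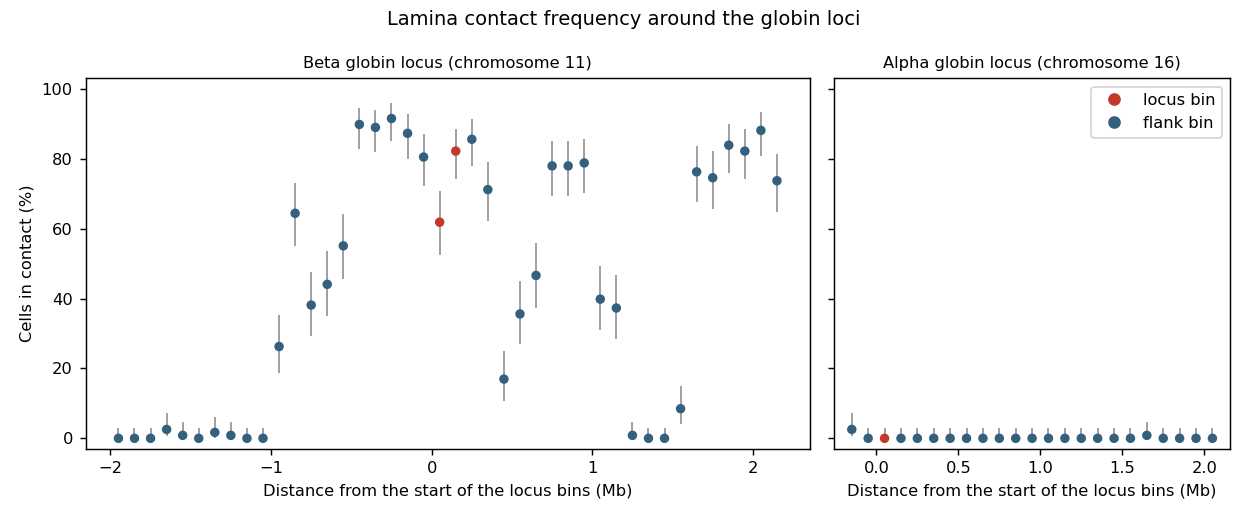
Percentage of the 118 cells in contact (y axis) for each 100 kb bin by distance from the start of the locus bins in Mb (x axis), with exact 95% intervals as bars, for the beta globin locus (left) and the alpha globin locus (right). The red beta bins stand at 61.9 and 82.2% inside a stretch of frequent contact, and the red alpha bin stands at 0% in a flat profile.

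The ratios themselves gave the same order. The globin gene bin ranged from 0 to 5.99 over the cells, with a median of 1.39 and a mean of 1.48 ± 1.16 (SD, n = 118). The second beta bin ranged from 0 to 6.65, with a median of 2.34 and a mean of 2.41 ± 1.40. The alpha bin ranged from 0 to 0.949, with a median of 0 and a mean of 0.0461 ± 0.142. The highest alpha cell therefore stayed just below the contact value, and its 5 reads were the most of any cell in that bin. Summed over cells, the globin gene bin held 785 reads where a ratio of 1 in every cell would be 505 reads, and the alpha bin held 26 where it would be 454.

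The alpha bin had no read in 101 of 118 cells, 1 read in 12 cells and 2 or more in 5 cells. The globin gene bin had no read in 14 cells and the second beta bin in 8. The mean ratio of the beta bins exceeded the alpha ratio in 111 of 118 cells, equalled it in 7, all at 0, and was below it in 0. The mean difference, beta minus alpha, was 1.90 ± 1.09 (SD, n = 118). Near the contact value, the globin gene bin had 19 cells at 0.5 to under 1 and 17 at 1 to under 1.5. In such cells a few reads decide the call.

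**Figure D2:**
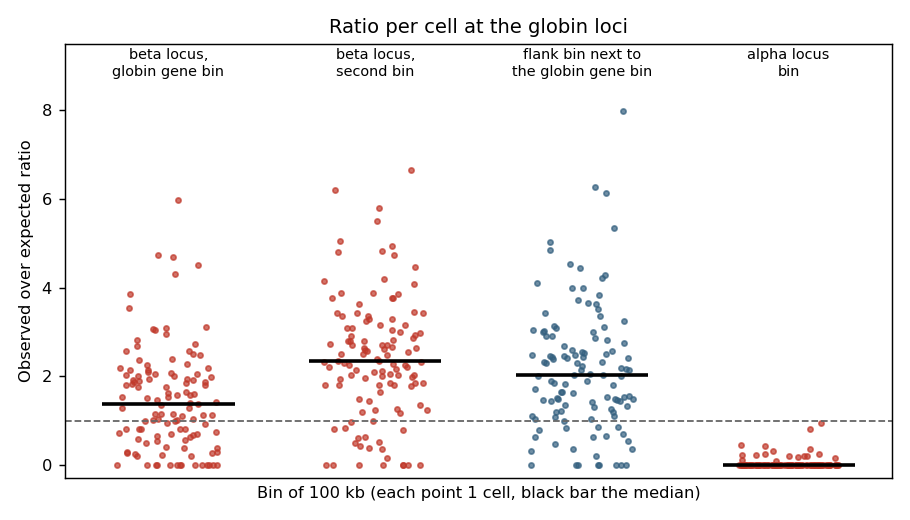
Ratio of observed to expected reads (y axis) in each of the 118 cells (points) for the beta locus bins, the flank bin next to the globin gene bin on the telomere side and the alpha locus bin, with the median as a black bar and the contact value of 1 as a dashed line. Medians lie at 1.39, 2.34, 2.03 and 0, and no cell of the alpha bin reaches the dashed line.

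Contact at the beta locus varied from cell to cell. Both beta bins were in contact in 67 of 118 cells, or 56.8% (47.3 to 65.9%), the second bin alone in 30, the globin gene bin alone in 6, and neither in 15. When the globin gene bin was in contact, the unbroken run of contact bins around it had a median length of 1.0 Mb, with quartiles of 0.9 and 1.3 Mb. It stood alone in 2 of these 73 cells and was part of at least 1 Mb in 42, or 57.5%, against 54.3% of all contact bins of all cells. The longest such run spanned 2.2 Mb in cell 50, from 4200001 to 6400000. In cells 14, 58 and 74 neither the locus nor any bin of its 2 Mb flanks was in contact. Cell 58 lacked nearly all contacts on the chromosome, with 2 of its 1308 bins in contact. Cells 14 and 74 had 33.1 and 18.5% of the bins of chromosome 11 in contact, so contacts were present elsewhere on the chromosome.

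The globin gene bin was a low point between frequently contacted neighbours. The bins from 4700001 to 5600000 formed a stretch of 0.9 Mb with a mean frequency of 82.1%, in which the globin gene bin was lowest with 61.9% and the next lowest bin had 71.2%. Its direct neighbours were at 80.5% (72.2 to 87.2%) on the telomere side and at 82.2% on the centromere side. All these bins were read in the same cells, so their separate intervals do not test the difference. Among 2647 bins of the genome with both neighbours at 80% or more, the median frequency was 85.6%, and 18 bins (0.68%), the globin gene bin itself among them, were at its frequency or lower. Some bins hold fewer expected reads, which makes calls noisier. Of the 119 such bins with no more reads per ratio of 1 than the globin gene bin, itself included, 1 (0.84%) was as low, which is the globin gene bin, and 0 of the 118 others were. The neighbours of the globin gene bin lay just above the limit of 80%, and the bins were not matched for the level of their neighbours. This comparison was chosen after the values were seen and is a description.

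**Figure D3:**
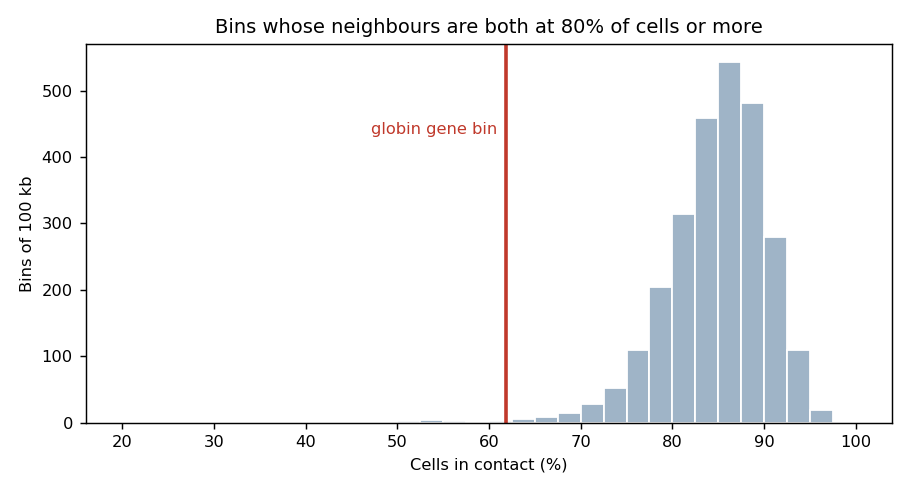
Number of 100 kb bins (y axis) by the percentage of cells in contact (x axis) for the 2647 bins whose neighbours on both sides were in contact in at least 80% of cells. The red line marks the globin gene bin at 61.9%, left of nearly all other bins, whose median is 85.6%.

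The low value was present in the ratios too and differed between cells. The ratio of the globin gene bin averaged 1.48 ± 1.16, and the mean of its neighbours averaged 2.28 ± 1.26 (SD, n = 118). The difference within cells, globin gene bin minus the mean of its neighbours, was -0.80 ± 1.35, so the spread between cells exceeded its size. It was -0.31 ± 1.26 in the 28 cells numbered 96 to 124 and -0.95 ± 1.35 in the 90 cells numbered 1 to 94. The globin gene bin was below both neighbours in 64 cells and above both in 18. In 86 cells both neighbours were in contact, and the globin gene bin was not in contact in 25 of them, or 29.1% (19.8 to 39.9%), with no read in 3. Of the 12 cells with neither neighbour in contact, it was in contact in 2. In contact, its median ratio was 1.94, against 2.39 on the telomere side and 2.65 in the second beta bin.

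Contact frequency changed within the flanks of the beta locus. Of the 40 flank bins, 9 were at 80% or more, against 15.1% of usable bins, and 25 were at 20% or more, against 48.9%. Another 8 were at 0%, which is 20.0% of the flank bins, against 22.3% of usable bins. On the telomere side the bin from 4100001 to 4200000 was in contact in 0 of 118 cells, the next at 26.3% and the following at 64.4%. In those last bins a ratio of 1 stood for 2.08 and 1.05 reads in the median cell, so that few reads decide contacts there. The bins from 4400001 to 4700000 were lower again, at 38.1, 44.1 and 55.1%, and the plateau from 4700001 began at 89.8%. The rise was thus uneven. The highest bin of this side, from 4900001 to 5000000, reached 91.5% (85.0 to 95.9%). All 10 bins from 3200001 to 4200000 were at 2.54% or less, and the step to 0% lay 1 Mb from the locus bins on this side. In the bins starting at 3300001, 3400001 and 3500001 a ratio of 1 stood for only 1.60, 1.07 and 0.410 reads in the median cell. The value of 2.54% was that of the bin starting at 3500001, where a single read can make a contact.

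On the centromere side contact broke off and returned. The bin from 5600001 to 5700000, 0.2 Mb from the locus bins, was at 16.9% (10.7 to 25.0%), followed by a rise to 78.8% in the bin from 6100001 to 6200000. From 6400001 to 6700000 the bins were at 0.847, 0 and 0%, and from 6800001 onwards at 73.7 to 88.1%. The highest was the bin from 7200001 to 7300000 at 88.1% (80.9 to 93.4%). Per cell, 52.8% ± 20.0 of this side was in contact, against 33.6% ± 12.4 of the telomere side (SD, n = 118). The whole flanks of the beta locus had 43.2% ± 14.8 in contact, and 43.6% ± 14.3 without cell 58, against 0.154% ± 0.826 for the flanks of the alpha locus. The beta flanks exceeded the alpha flanks in 114 of 118 cells, both were equal in 3, and 1 cell had the opposite order.

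The flanks of the alpha locus had few contacts, with 0.154% of bins in contact in the average cell, and with 0.847% at a contact value of 0.5 and 0.667% after thinning to 50000 reads per cell. Of the 22 flank bins, 20 were at 0%, against 22.3% of usable bins. Only 4 contacts were seen in 22 bins and 118 cells, against 2039 contacts in the 40 beta flank bins. Of these, 3 lay in the first bin of the chromosome, where a ratio of 1 stood for 0.606 reads, so that a single read can make a contact there, and 1 in the bin from 1800001 to 1900000. From the chromosome start to 5200000 the bins stayed at 5% or less, with 47 of 51 usable bins at 0%, and these 5.2 Mb were without any contact in 112 of 118 cells. The nearest bin at 20% or more began at 5700001, 5.4 Mb from the alpha bin, with 21.2%. The nearest at 80% or more began at 59600001 on the other arm, with 83.1%.

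**Figure D4:**
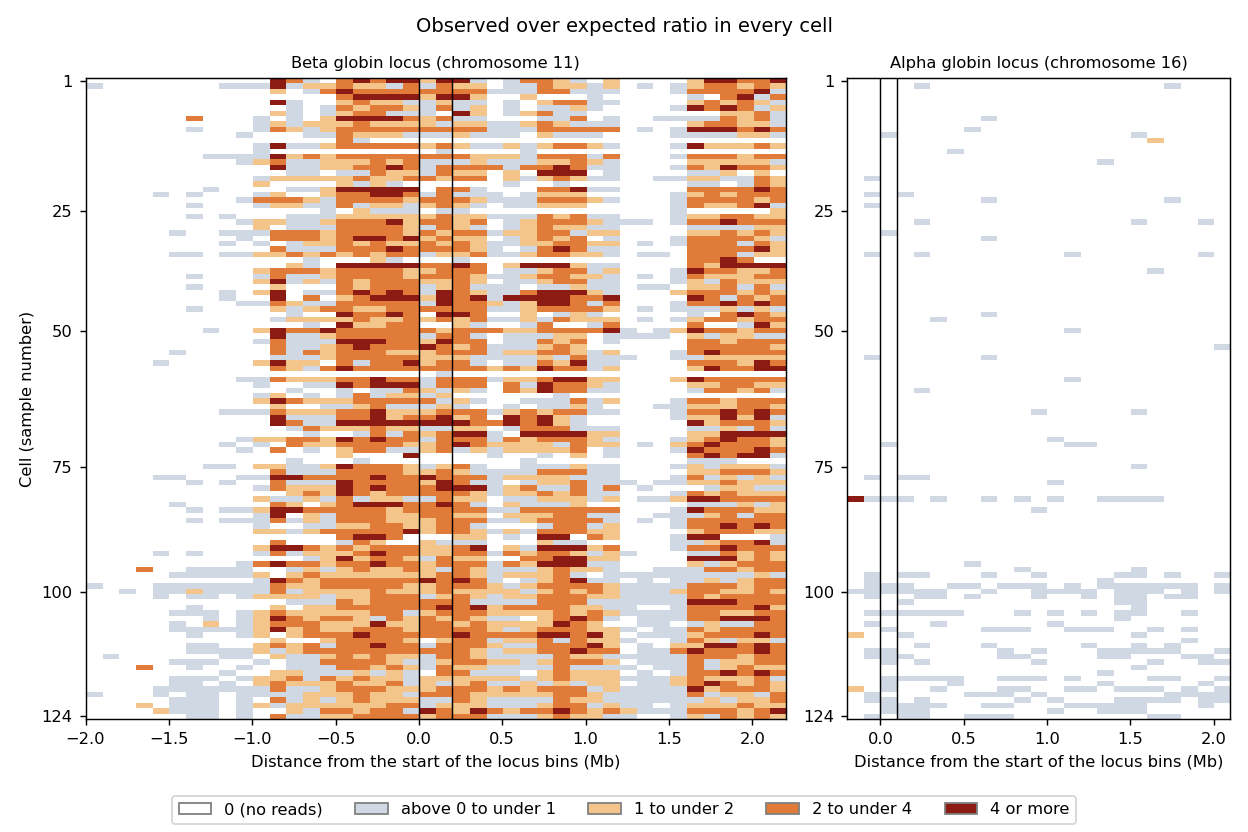
Ratio of observed to expected reads in every cell (rows, by sample number) and every 100 kb bin (columns, by distance from the start of the locus bins in Mb) for the beta (left) and alpha (right) globin loci, with the locus between the black lines. White is no read, grey a ratio under 1 and orange to dark red contact. Contact around beta is broken by a paler column at the globin gene bin, and the alpha side shows scattered grey only, save 4 contacts.

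Both loci were also set against their own chromosome and against bins at the same distance from the start of other chromosomes. The average cell had 37.7% ± 8.90 of chromosome 11 in contact and 18.2% ± 8.58 of chromosome 16 (SD, n = 118). On chromosome 11, 18.1% of bins were at or above the second beta bin and 37.5% at or above the globin gene bin. On chromosome 16, 34.8% of bins had no contact in any cell, as the alpha bin did. At the distance of the alpha bin from the chromosome start, 9 of 14 other chromosomes with a usable bin were also at 0%, and the highest was chromosome 3 at 73.7%. At the position of the globin gene bin the 16 other chromosomes had a median of 14.8%, and 2 of them, chromosomes 2 and X, were higher with 85.6 and 83.1%. At the position of the second beta bin the median was 11.0%, with the same 2 chromosomes higher.

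Contact of the beta locus was also correlated over cells with that of its surroundings. As a description over 118 cells that share libraries and depth, the contact of the globin gene bin had a Pearson correlation of 0.319 with the second beta bin and 0.274 with the bin on its telomere side, while those neighbours had 0.442 with each other. Contact calls of bins with unlike frequencies cannot reach a correlation of 1. The values of the globin gene bin are therefore not comparable with that between its neighbours. The contact share of the locus had a correlation of 0.632 with that of its flanks, 0.385 with that of the whole cell and 0.304 with the number of reads. With each cell's overall contact share regressed out, the globin gene bin had correlations of 0.132 to 0.303 with the 9 bins at 20% or more within 0.5 Mb. The highest was the bin from 5400001 to 5500000. At 0.6 to 1 Mb, 10 such bins had correlations of -0.0449 to 0.283, and beyond 1 Mb, 7 had 0.0633 to 0.243. The medians were 0.189, 0.231 and 0.174 from near to far. The groups of bins differ in contact frequency, and thus in the highest correlation they can reach. These medians therefore cannot show whether the correlation changes with distance.

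Of 20431 bins on other chromosomes or over 10 Mb away, the contacts most like those of the beta locus over cells lay on chromosome 11 from 30500001 to 30600000 (r = 0.432), chromosome 5 from 30700001 to 30800000 (r = 0.431) and chromosome 1 from 242300001 to 242400000 (r = 0.426). Chromosome 11 from 21700001 to 21800000 and from 41700001 to 41800000 followed with 0.422 and 0.411. The median over these bins was 0.0731. Without cell 58, the 5 correlations were 0.390 to 0.414. As the highest of many values these are open to chance, and they are given with no test. For the alpha locus no such search was possible because it had no contact to correlate.

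Part of the variation went with the sample number. The 28 cells numbered 96 to 124 had more reads, 170307 ± 74986 against 127703 ± 53864 in the 90 cells numbered 1 to 94, and a larger contact share of the genome, 36.5% ± 3.44 against 31.9% ± 5.53. The beta locus had 78.6% ± 28.6 of its bins in contact in cells 96 to 124, against 70.0% ± 37.3 in cells 1 to 94. These SDs are spreads between cells and do not measure whether the means differ, which was not tested. The alpha bin was at 0 of 28 and 0 of 90 cells, although its ratio averaged 0.164 ± 0.250 in the higher-numbered set and 0.00940 ± 0.0443 in the lower-numbered set. For the beta bins the average was 2.11 ± 1.04 in the higher-numbered set and 1.90 ± 1.10 in the lower-numbered set. The globin gene bin was in contact in 67.9% of cells 96 to 124 and in 60.0% of cells 1 to 94, against 89.3 and 80.0% in the second beta bin and 75.0 and 82.2% in the bin on the telomere side. Its gap to the telomere side was thus 19 against 21 of 28 cells in the higher-numbered set. By ratio it was not lower than that bin there, with 1.75 ± 1.33 against 1.66 ± 0.835, whereas in the lower-numbered set it had 1.40 ± 1.10 against 2.31 ± 1.54. Wider gaps were seen in flank bins of intermediate level, such as 5600001 to 5700000 with 46.4 and 7.78% and 6200001 to 6300000 with 78.6 and 27.8%. The labels name no batch, and the part of depth in these differences was not tested.

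**Figure D5:**
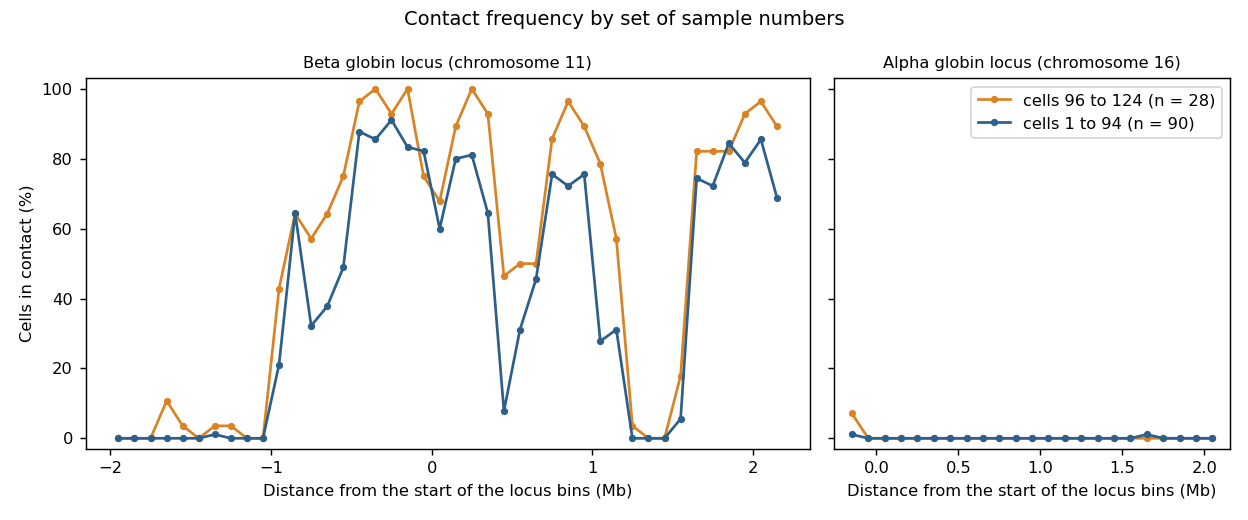
Percentage of cells in contact (y axis) for each 100 kb bin by distance from the start of the locus bins in Mb (x axis), in the 28 cells numbered 96 to 124 (orange) and the 90 cells numbered 1 to 94 (blue), for beta (left) and alpha (right). At the globin gene bin the lines stand at 67.9 and 60.0%, with 75.0 and 82.2% in the bin before it, and both lie at 0% in the alpha bin.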

How the data were processed

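The authors deposited 1 table that holds, for each 100 kb bin and cell, the ratio of observed over expected reads. Its name and values gave the unit. The making of the expected part, and the role of each tool, are not stated in the labels. Per the submitters' processing notes, cutadapt, Bowtie2 2.1.0 and hg19 were used. Samples 33, 34, 44, 86, 95 and 120 were not analysed here. A bin was used if no cell lacked a number and any cell was above 0, which left 26426 of 30376.

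Whole reads were recovered as multiples of a bin step and a cell step. Of the ratios above 0, 100% lay within 0.02 reads of a whole number. The recovery was also run on simulated ratios built from the recovered steps. Those ratios have the assumed form, so that run is no separate check that the deposited ratios have it. Reads carry no molecular identifiers. Contact was a ratio of 1 or more. Exact intervals are at 95%.

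No test was made because the labels name 1 group and no cultures. The members and lists were chosen with earlier results of these data known. Named genes are the 8 members and a list of flanking genes. Bins named are the extremes and nearest class changes of the flanks and the 5 most similar distant bins, and others where the text turns on them. The planned lists of erythroid genes were not used, since hg19 gene positions were not used here. RefSeq served for names, order and promoters. Alternatives covered the contact value, depth, cells, locus and flank width. Analyses used Python 3.11.15 with numpy 2.4.6, scipy 1.17.1 and pandas 2.3.3.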

Additional observations from a re-analysis of the deposited data

How the results depend on the processing

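The beta locus stayed above the alpha locus under all 11 alternatives run for that difference, which was 47.0 to 82.2 percentage points, against 72.0 as reported. Of 64 values of 6 results under 13 alternatives, 62 moved by less than 1 SD between cells (for the alpha locus, whose SD is 0, by less than its exact upper bound of 3.08%). This SD is a spread between single cells and not the uncertainty of a mean, so the criterion is wide and the count says little about stability. The beta locus met it with 47.0% at a contact value of 2, against 72.0% ± 35.5 as reported. The share of the beta flanks in contact moved to 26.1% at a contact value of 2 and to 61.7% with flanks of 1 Mb. The share of the alpha flanks was 0.0385 to 0.847%, against 0.154% as reported. The alpha bin was in contact in 2 cells (1.69%) at a contact value of 0.5 and in 1 of 109 cells (0.917%) with each cell thinned to 50000 reads, which left out 9 shallower cells, and in 0 cells under the other alternatives run for it. The globin gene bin minus the mean of its neighbours was -30.1 to -11.4 points under 9 alternatives added after the data were seen, against -19.5 as reported, but its SD of 48.5 points makes the criterion of 1 SD wide. At a contact value of 2 it was in contact in 28.8% of cells, against 65.3 and 52.5% for its neighbours. Leaving out cell 58 was also added after the data were seen. Bins with a number in at least 1 cell gave the same flanks. A bin of 100 kb does not resolve single genes, and in 14 cells a ratio of 1 stood for under 3 reads in the median bin, so that single reads decide contacts there. No paired analysis was possible because the labels give 1 group, so no groups share replicate numbers, and pairing was that of the loci within each cell.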
